A study of Homo sapiens with 4 samples.

Results

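The comparison described here sets A549 cells that received dihydroberberine and sunitinib together against untreated A549 cells. It uses 2 of the 4 arrays of the series, 1 for each condition, and was chosen by the labels alone. The 4 conditions were no drug, 25 µmol/L dihydroberberine, 2 µmol/L sunitinib, and both drugs at those doses. Cells were plated and treated as cultures of the A549 line, and total RNA was taken after 48 h. Every condition has 1 array, so no difference below has a replicate check, and no p-value or standard deviation between replicates is given. A549 is an established human lung adenocarcinoma line that lacks functional LKB1 and KEAP1, has lost the CDKN2A locus and keeps wild-type p53. The series asks which genes differ between the drugs given singly and together.

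Dihydroberberine is berberine, an alkaloid of barberry and related plants, in a reduced form, and berberine is known for slowing mitochondrial respiration at complex I and for activating AMPK, the kinase that senses low cellular energy. Sunitinib blocks several receptor tyrosine kinases, including KIT, FLT3 and those that bind PDGF and VEGF, and as a weak base it also collects in lysosomes. Growth factor receptors signal through the RAF, MEK and ERK kinases to immediate early genes and onward to cyclins, which set DNA replication and mitosis in motion. Shortage of amino acids or respiratory stress raises the transcription factor ATF4, which switches on amino acid synthesis genes and tRNA synthetases.

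Values are log2 probe set levels as deposited by the authors, so a difference of 1 is 2-fold. The array carries 49293 probe sets for transcripts, of which 44988 name a single gene and together stand for 18132 genes. Each gene is represented by its probe set with the highest mean over the 4 arrays. A gene was kept where the untreated or the combination array reached the median of all transcript values, a log2 level of 6.75 that serves as the floor, and 10625 genes were kept. Array medians lay between 6.73 and 6.76, and the untreated and combination arrays correlated across probe sets with Pearson's r = 0.989. The control transcripts spiked into the RNA before labelling were lower on the combination array by a median of -0.45 over 24 probe sets, against -0.23 with dihydroberberine and -0.34 with sunitinib, whereas the hybridisation controls differed by a median of 0.01 over 18 probe sets. Whether the spike difference bears on the results was not tested. With array medians this close, a change in total RNA per cell cannot be seen, and in bulk RNA fewer cells of a type and less RNA per cell cannot be told apart.

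The label was checked against marker genes. CPS1, the urea cycle enzyme that A549 expresses strongly, stood at 13.18 untreated, 12.45 with dihydroberberine, 12.58 with sunitinib and 11.40 with both drugs. The keratin KRT18 was at 14.17 to 14.38, and NQO1, a quinone reductase that is high in KEAP1-deficient cells, at 14.77 to 14.57, the first value of each pair being untreated and the second both drugs. Of 20 markers of leukocytes and red cells on the array, 15 were under the floor on both arrays, PTPRC, the pan-leukocyte marker CD45, among them at 3.84 and 3.81. Of 18 endothelial and fibroblast markers, 12 were under the floor on both arrays, including PECAM1 at 5.50 and 5.56. Several receptors that sunitinib is known to inhibit were under the floor as well: FLT1 read 4.15 and 4.23, FLT3 4.90 and 5.01, KIT 4.18 and 3.94, PDGFRA 5.00 and 4.74, and RET 5.04 and 5.10. This did not hold for all of them, as the VEGF receptor KDR and the PDGF receptor PDGFRB were among the genes kept. CDH1 and EPCAM, the defining epithelial adhesion genes, were also under the floor, at 4.45 and 4.90 and at 4.47 and 4.59.

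With both drugs, 127 genes were at least 2-fold higher than untreated (1.20% of the 10625 kept) and 164 were at least 2-fold lower (1.54%). At 1.5-fold the counts were 749 higher (7.05%) and 793 lower (7.46%). Above 0 lay 4987 genes (46.9%) and below 0 lay 5632 (53.0%), around a median difference of -0.03. The higher genes started dimmer: their median level was 7.41 untreated and 8.74 with both drugs, and 41 of the 127 had 1 array under the floor. The lower genes started brighter, at a median of 9.76 untreated and 8.43 with both drugs, and 29 of the 164 had 1 array under the floor. Part of this contrast in starting level is set by the selection, since genes were chosen by their difference from the untreated array. Large differences were few, with 13 genes at 2 or above and 4 at -2 or below. Across the same genes the single-drug arrays, which share the untreated array with this comparison, gave 110 higher and 385 lower for dihydroberberine and 23 higher and 64 lower for sunitinib. The spread of differences over genes was an SD of 0.43 for the combination, 0.48 for dihydroberberine and 0.30 for sunitinib.

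**Figure D1:**
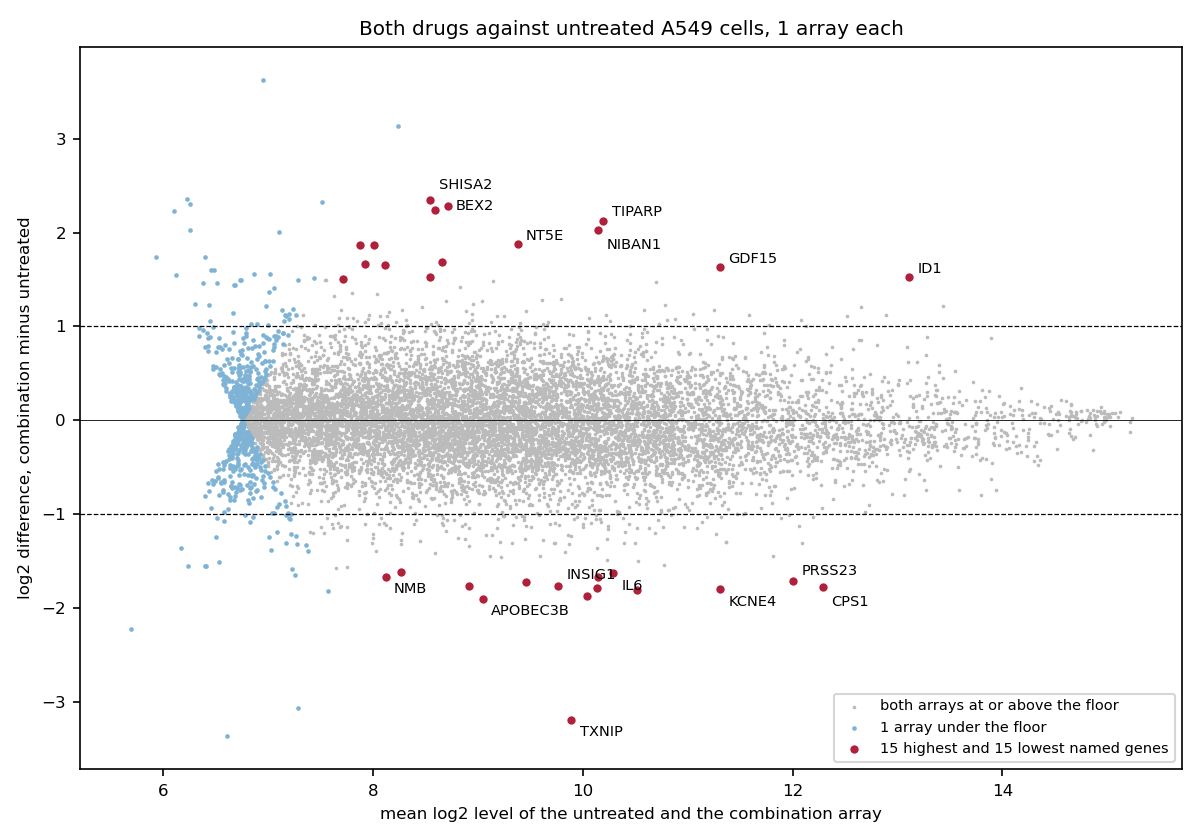
Each point is 1 of the 10625 genes, with the mean log2 level of the untreated and combination arrays on the x axis and the log2 difference, combination minus untreated, on the y axis; dashed lines mark 2-fold, blue points have 1 array under the floor and red points are the 15 highest and 15 lowest named genes. TXNIP at -3.19 stands below the other red points, and 90 of the 127 genes at least 2-fold higher lie under the median level of all genes.

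The only technical spread that these arrays offer is that between probe sets of one gene. Over 6234 genes with at least 2 probe sets above the floor, the SD of the difference between probe sets had a median of 0.13 and a 90th percentile of 0.32. Of the 127 higher genes, 68 had several such probe sets, which shared their sign in 65 and all passed 2-fold in 23. Of the 164 lower genes, 93 had several, which shared their sign in 88 and all passed 2-fold in 32.

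Among genes over the floor on both arrays, the highest differences belonged to SHISA2, BEX2, MEGF6, TIPARP and NIBAN1. SHISA2, whose product holds back the maturation of FGF and Wnt receptors, read 7.37 untreated, 8.54 with dihydroberberine, 8.71 with sunitinib and 9.72 with both drugs, a 5.09-fold difference. It had 1 probe set over the floor, and its log2 difference was as low as 1.38 under the alternatives described below. BEX2 read 7.57 untreated, 8.68 with dihydroberberine, 8.61 with sunitinib and 9.86 with both drugs, 4.87-fold above untreated. Both genes were intermediate on the single-drug arrays and highest with both drugs. TIPARP, an ADP-ribosyltransferase and classic target of the aryl hydrocarbon receptor, read 9.13 untreated, 11.72 with dihydroberberine, 9.54 with sunitinib and 11.26 with both drugs. Its 2 probe sets differed from untreated by 1.93 to 2.13, and its level was high on both arrays with dihydroberberine and close to untreated with sunitinib alone. NIBAN1, a stress-induced gene, read 9.14 untreated, 10.84 with dihydroberberine, 10.74 with sunitinib and 11.16 with both drugs, and was high on all 3 drug arrays. MEGF6 read 7.47 untreated, 8.52 with dihydroberberine, 9.29 with sunitinib and 9.72 with both drugs, but its 2 probe sets disagreed in size, at 0.65 to 2.24.

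NT5E encodes the ectoenzyme CD73, which makes extracellular adenosine. It read 8.44 untreated, 10.33 with dihydroberberine, 8.50 with sunitinib and 10.32 with both drugs, a 3.68-fold difference, with sunitinib alone at the untreated level. IL1A, an alarmin cytokine, was likewise higher on both arrays with dihydroberberine, at 6.95 untreated, 8.97 with dihydroberberine, 7.33 with sunitinib and 8.81 with both drugs, and so was DLC1, a tumour suppressor gene often lost in liver cancer, at 7.81 untreated, 9.43 with dihydroberberine, 7.65 with sunitinib and 9.50 with both drugs. GDF15, a stress-secreted hormone of the TGF-beta family, read 10.49 untreated, 12.58 with dihydroberberine, 10.87 with sunitinib and 12.12 with both drugs, and FOSL1, an AP-1 subunit downstream of ERK, read 7.79 untreated, 10.24 with dihydroberberine, 8.17 with sunitinib and 9.31 with both drugs; for both, dihydroberberine alone gave the highest value. The inhibitor of differentiation ID1 was already abundant and read 12.35 untreated, 13.01 with dihydroberberine, 13.28 with sunitinib and 13.87 with both drugs, with both single-drug arrays between untreated and the combination. GDPD1 was 3.65-fold higher, UBASH3B 3.17-fold, PLCB4 3.14-fold and NTSR1, the neurotensin receptor, 2.85-fold. Some of these genes had probe sets under 2-fold: the range was 0.77 to 1.87 for GDPD1, 0.70 to 1.82 for UBASH3B, 0.49 to 1.65 for PLCB4, 0.71 to 1.67 for GDF15, 0.43 to 1.53 for FOSL1 and 0.61 to 2.11 for NIBAN1. PLCB4 was at 0.92 without probe sets shared between genes or transcripts (_s_ and _x_ types), and FOSL1 at 0.94 as the mean of its probe sets. For 5 further genes the untreated array was under the floor, so the fold is a bound: NUPR1, a small stress protein of the nucleus, was at least 8.30-fold higher, CSTA, a cysteine protease inhibitor, at least 4.05-fold, MARCHF4, a ubiquitin ligase, at least 3.80-fold, the collagen receptor subunit ITGA2 at least 2.55-fold and the RNA-binding protein RBM24 at least 2.43-fold.

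TXNIP had the lowest difference of all genes over the floor on both arrays. It encodes an arrestin-like protein that restrains glucose uptake and thioredoxin, and its transcription follows glucose metabolites through MondoA. It read 11.49 untreated, 7.06 with dihydroberberine, 12.14 with sunitinib and 8.30 with both drugs, a 9.10-fold lower level with both drugs, and its 5 probe sets ran from -3.58 to -2.57. The 2 arrays with dihydroberberine were low and the sunitinib array was the highest of the 4. ARRDC4, the arrestin regulated most like it, had the same order at 7.82 untreated, 5.12 with dihydroberberine, 8.62 with sunitinib and 6.93 with both drugs, while ARRDC1 (8.23 to 9.01) and ARRDC3 (8.59 to 9.13) were higher with both drugs.

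APOBEC3B, a DNA cytidine deaminase, read 10.00 untreated, 8.91 with dihydroberberine, 8.94 with sunitinib and 8.10 with both drugs, and the combination was the lowest of the 4 arrays. CPS1, given above, showed that order too, and its 3 probe sets ran from -2.10 to -1.78. IL6, an inflammatory cytokine, read 11.10 untreated, 11.51 with dihydroberberine, 9.70 with sunitinib and 9.48 with both drugs, low on both arrays with sunitinib and not on the array with dihydroberberine alone. NRG1, a ligand of ERBB receptors, read 9.80 untreated, 9.53 with dihydroberberine, 8.42 with sunitinib and 8.04 with both drugs, with 4 probe sets that ran from -1.76 to -0.27. SIK2, a salt-inducible kinase, read 10.98 untreated, 8.19 with dihydroberberine, 9.77 with sunitinib and 9.11 with both drugs, lowest with dihydroberberine alone. ALDOC, a glycolytic aldolase, was 3.45-fold lower, KCNE4, a potassium channel subunit, 3.47-fold, TENT5A 3.50-fold, the secreted protease PRSS23 3.28-fold, the extracellular glutathione peroxidase GPX3 3.18-fold, the neuropeptide NMB 3.17-fold and the sphingosine phosphate receptor S1PR3 3.06-fold. The probe sets of ALDOC ran from -1.85 to -0.85 and those of SIK2 from -1.87 to -0.54, and ALDOC was at -0.85 without shared probe sets. INSIG1 and FADS2 are given with the lipid genes. Where the combination array was under the floor, CD14 was at least 4.19-fold lower, the intermediate filament gene NES at least 3.32-fold and TMT1A at least 2.90-fold. PFKFB4, an enzyme that regulates glycolysis, and C1orf54 were each at least 2.51-fold lower in the same way.

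**Figure D2:**
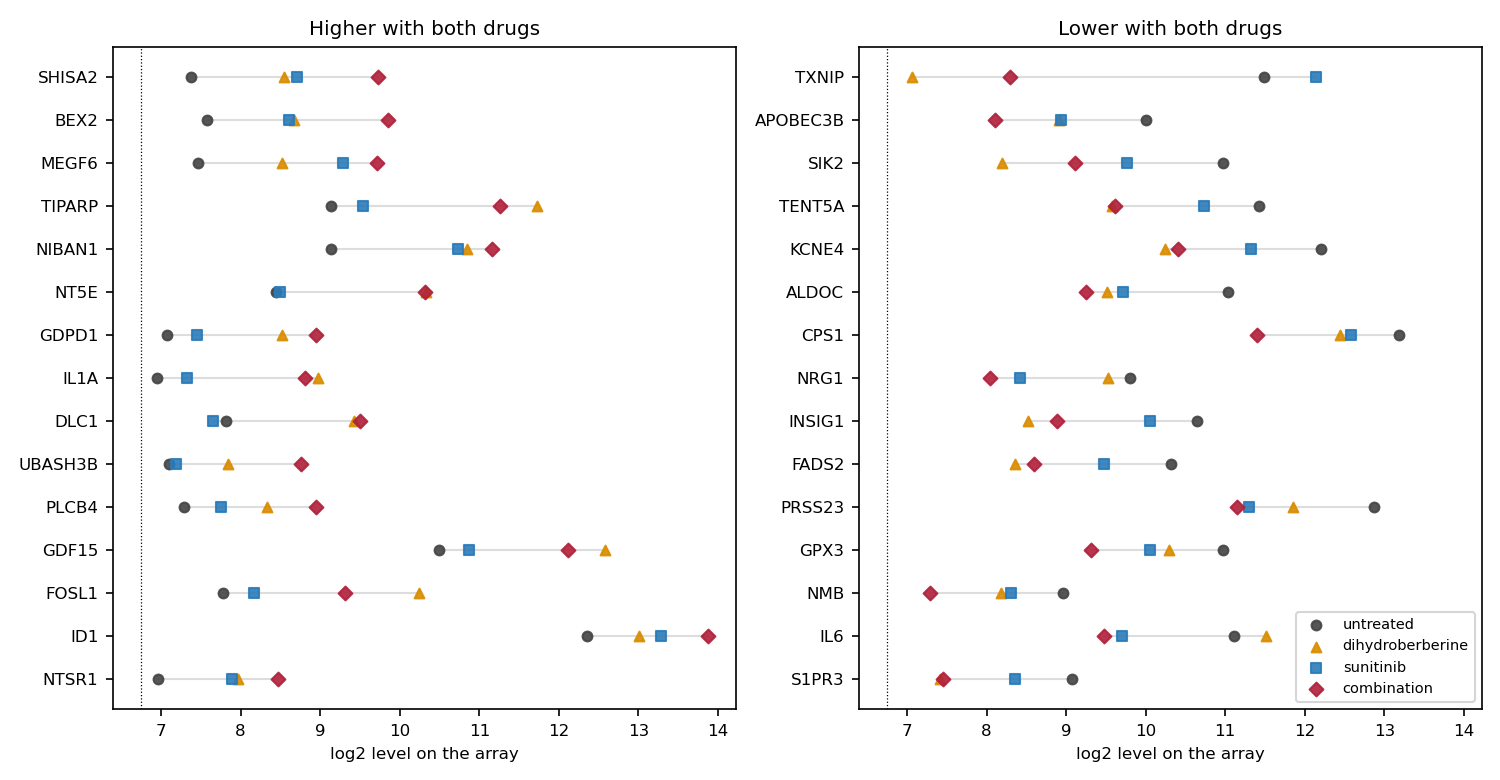
Log2 levels on the 4 arrays of the 15 genes with the highest (left) and the 15 with the lowest (right) difference between both drugs and untreated; each symbol is 1 array and the dotted line is the floor of 6.75. For SHISA2, BEX2, ID1, APOBEC3B and CPS1 the single-drug arrays lie between untreated and combination, while for TXNIP sunitinib alone, at 12.14, lies above untreated.

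**Figure D3:**
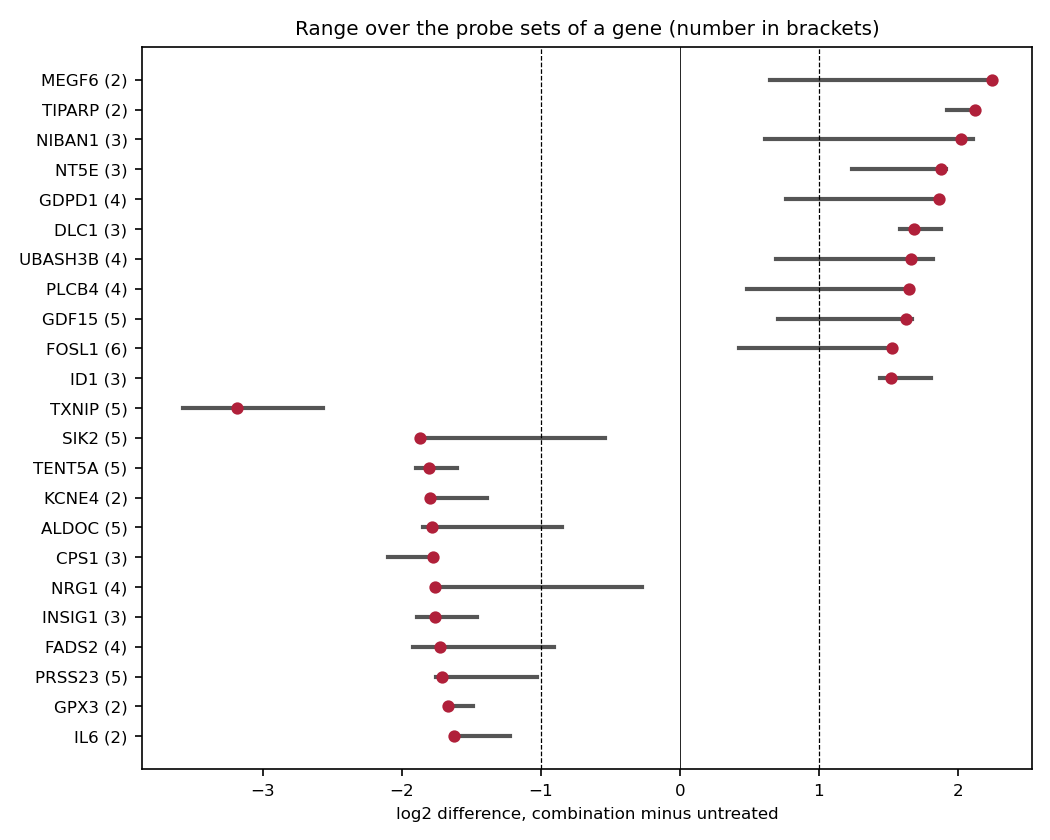
For the named genes with several probe sets above the floor, bars span the lowest to the highest log2 difference (combination minus untreated) over probe sets, and the red point is the probe set used; dashed lines mark 2-fold. All probe sets of TIPARP, NT5E, DLC1, ID1, TXNIP, CPS1, INSIG1 and IL6 pass 2-fold, while those of NRG1 run from -1.76 to -0.27.

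Cell cycle genes were lower with both drugs. Of 46 DNA replication genes kept, 41 were below 0 and 5 above, with a median difference of -0.54; 4 were at least 2-fold and 22 at least 1.5-fold lower, and none reached 1.5-fold higher. The median over the same genes was -0.49 with dihydroberberine and -0.20 with sunitinib. TK1, thymidine kinase, read 12.01 untreated, 11.20 with dihydroberberine, 11.70 with sunitinib and 10.72 with both drugs. CDT1, which loads the replicative helicase, read 9.86 untreated, 9.17 with dihydroberberine, 9.12 with sunitinib and 8.56 with both drugs, and the helicase subunits MCM2 and MCM4 went from 10.24 to 9.14 and from 11.70 to 10.67. Each of these genes had its lowest value with both drugs.

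Of 55 genes of G2 phase and mitosis, 47 were below 0 and 8 above (median -0.39, against -0.40 with dihydroberberine and -0.23 with sunitinib), 5 were at least 2-fold lower and 22 at least 1.5-fold lower. KIF20A, the kinesin of the central spindle, read 10.97 untreated, 9.75 with dihydroberberine, 10.25 with sunitinib and 9.49 with both drugs, and KIFC1, a minus-end kinesin, read 9.44 untreated, 8.26 with dihydroberberine, 8.89 with sunitinib and 8.19 with both drugs. The mitotic kinase AURKA read 12.41 untreated, 11.65 with dihydroberberine, 11.91 with sunitinib and 11.37 with both drugs, and SPC25, a kinetochore subunit, read 10.46 untreated, 8.79 with dihydroberberine, 9.75 with sunitinib and 9.43 with both drugs, where dihydroberberine alone was lower than the combination. Not all members were lower: ASPM, a spindle pole protein, was at 9.34 to 9.54 and the proliferation marker MKI67 at 8.82 to 8.89. All 15 replication-dependent histone genes kept were below 0, with a median of -0.66, against -0.07 with dihydroberberine and -0.30 with sunitinib; 4 were at least 2-fold and 10 at least 1.5-fold lower. With the histone genes under the floor counted too, the median was -0.34. H4C12 read 8.61 untreated, 8.55 with dihydroberberine, 8.36 with sunitinib and 7.50 with both drugs. H2BC9 (7.28 to 5.78), H2AC17 (7.82 to 6.62) and H1-3 (7.68 to 6.50) ended under the floor, and a further 26 histone genes were under it on both arrays. Histone genes share close sequences, and their transcripts mostly lack poly-A tails, so the poly-A-primed labelling kit named in the labels reads them only in part.

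Short motifs recurred in the promoters of these lists, and 5 promoters of genes named above are printed to show them. Promoters are the 250 bases before the start in RefSeq's GRCh38.p14, and shares count only genes with 1 start in that table. CCAAT, the site of NF-Y, was found on either strand in 31 of 40 promoters of the G2 and mitosis list (77.5%), in 11 of 12 of the histone list (91.7%) and in 51 of 95 of all genes at least 2-fold lower (53.7%), against 36.2% of the 6268 kept genes' promoters and 33.4% of 22114 promoters in the table. It was also common in lists that were not lower, with 14 of 20 ATF4 targets (70.0%) and 8 of 9 serine and one-carbon genes (88.9%). TTTGAA, the core of the cell cycle homology region, was in 21 of 40 G2 and mitosis promoters (52.5%) and in 7.90% of kept genes. The motif was also in 5 of 12 histone promoters (41.7%) and in 3 of 7 promoters of prostaglandin synthesis and receptor genes (42.9%). Its share was alike in both directions, with 14 of 95 genes at least 2-fold lower (14.7%) and 10 of 66 at least 2-fold higher (15.2%). The E2F core TTNNCGC was in 21 of 32 DNA replication promoters (65.6%) and in 34.4% of kept genes, and in 31 of 95 genes at least 2-fold lower (32.6%). It was also common in lists outside replication. Among them were serine and one-carbon genes (6 of 9, 66.7%), cholesterol genes (8 of 14, 57.1%) and complexes II to V (13 of 24, 54.2%). The windows of TK1, at the start farthest upstream of its 2, and of MCM2 hold 0 E2F matches, so CDT1 is an example with matches and does not stand for the list. A match is a description of the letters, not of binding. In the 4 sequences of KIF20A, KIFC1, SPC25 and H2BC9 the capitals mark CCAAT or its complement, in SPC25 also TTTGAA or its complement, and in CDT1 they mark TTNNCGC or its complement; the sequences were chosen after the values were seen, for having matches, and AURKA had no entry to print.
KIF20A: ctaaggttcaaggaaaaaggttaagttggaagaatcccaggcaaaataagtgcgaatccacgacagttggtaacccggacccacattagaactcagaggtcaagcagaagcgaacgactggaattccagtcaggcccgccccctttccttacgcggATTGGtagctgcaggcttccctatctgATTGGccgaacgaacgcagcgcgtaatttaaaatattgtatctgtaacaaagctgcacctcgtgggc
KIFC1: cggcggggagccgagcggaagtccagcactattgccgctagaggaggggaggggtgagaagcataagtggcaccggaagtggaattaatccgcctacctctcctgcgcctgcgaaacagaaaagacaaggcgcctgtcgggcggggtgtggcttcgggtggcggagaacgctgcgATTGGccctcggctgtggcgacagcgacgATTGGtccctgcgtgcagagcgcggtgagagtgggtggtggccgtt
SPC25: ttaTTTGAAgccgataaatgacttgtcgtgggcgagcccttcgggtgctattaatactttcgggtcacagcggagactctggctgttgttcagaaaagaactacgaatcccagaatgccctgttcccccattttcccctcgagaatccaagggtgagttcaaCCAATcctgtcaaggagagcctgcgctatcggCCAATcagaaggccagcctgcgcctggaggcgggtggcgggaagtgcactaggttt
H2BC9: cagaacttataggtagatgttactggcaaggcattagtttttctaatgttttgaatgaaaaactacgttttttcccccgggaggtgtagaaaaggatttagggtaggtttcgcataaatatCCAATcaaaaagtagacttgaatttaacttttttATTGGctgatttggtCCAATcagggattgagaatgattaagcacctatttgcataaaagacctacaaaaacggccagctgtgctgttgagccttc
CDT1: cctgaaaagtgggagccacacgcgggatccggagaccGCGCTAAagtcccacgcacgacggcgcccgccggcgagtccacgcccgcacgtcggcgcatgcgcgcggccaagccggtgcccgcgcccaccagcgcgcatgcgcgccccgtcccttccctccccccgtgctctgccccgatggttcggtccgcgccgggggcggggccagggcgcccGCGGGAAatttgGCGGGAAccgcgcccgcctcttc

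KIF20A lies on chr5:138178862-138179111 (plus strand), KIFC1 on chr6:33391573-33391822 (plus strand), SPC25 on chr2:168890431-168890680 (minus strand), H2BC9 on chr6:26251364-26251613 (plus strand) and CDT1 on chr16:88803539-88803788 (plus strand). The CCAAT matches of KIF20A begin 94 and 67 bases before the start, those of KIFC1 75 and 46, those of SPC25 88 and 56, and those of H2BC9 129, 95 and 80. CDT1 has E2F matches 213, 35 and 23 bases before its start. The TTTGAA match of SPC25 begins 247 bases before the start, at the far edge of the window. The windows of KIF20A and KIFC1 hold no TTTGAA match. The H2BC9 window does hold TTTGAA, left in lower case because only CCAAT was marked there.

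Targets of p53 stood higher as a group. Of 27 kept, 24 were above 0 (median 0.34, against -0.01 with dihydroberberine and 0.14 with sunitinib), 3 were at least 2-fold and 7 at least 1.5-fold higher, and none reached 1.5-fold lower. CDKN1A, the cyclin-dependent kinase inhibitor p21, read 10.27 untreated, 10.88 with dihydroberberine, 10.54 with sunitinib and 11.34 with both drugs, and RRM2B, a ribonucleotide reductase subunit for DNA repair, 8.40 untreated, 8.70 with dihydroberberine, 8.67 with sunitinib and 9.43 with both drugs. FAS, a death receptor, went from 6.71 to 7.84, the untreated value being just under the floor, and ZMAT3 from 7.28 to 8.19. Among G1 regulators, cyclin D1 (CCND1) was at 10.66 to 11.38 and CDKN2D, an inhibitor of CDK4 and CDK6, at 7.72 to 6.68, the latter value being just under the floor. The 16 kept members had a median of 0.06. Apoptosis regulators had no common direction (13 of 25 above 0, median 0.05), yet the survival genes MCL1 and BIRC2 were each above 2-fold, at 12.05 to 13.25 and at 9.99 to 11.17. Their probe sets ran from 0.46 to 1.21 and from 0.80 to 1.18.

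**Figure D4:**
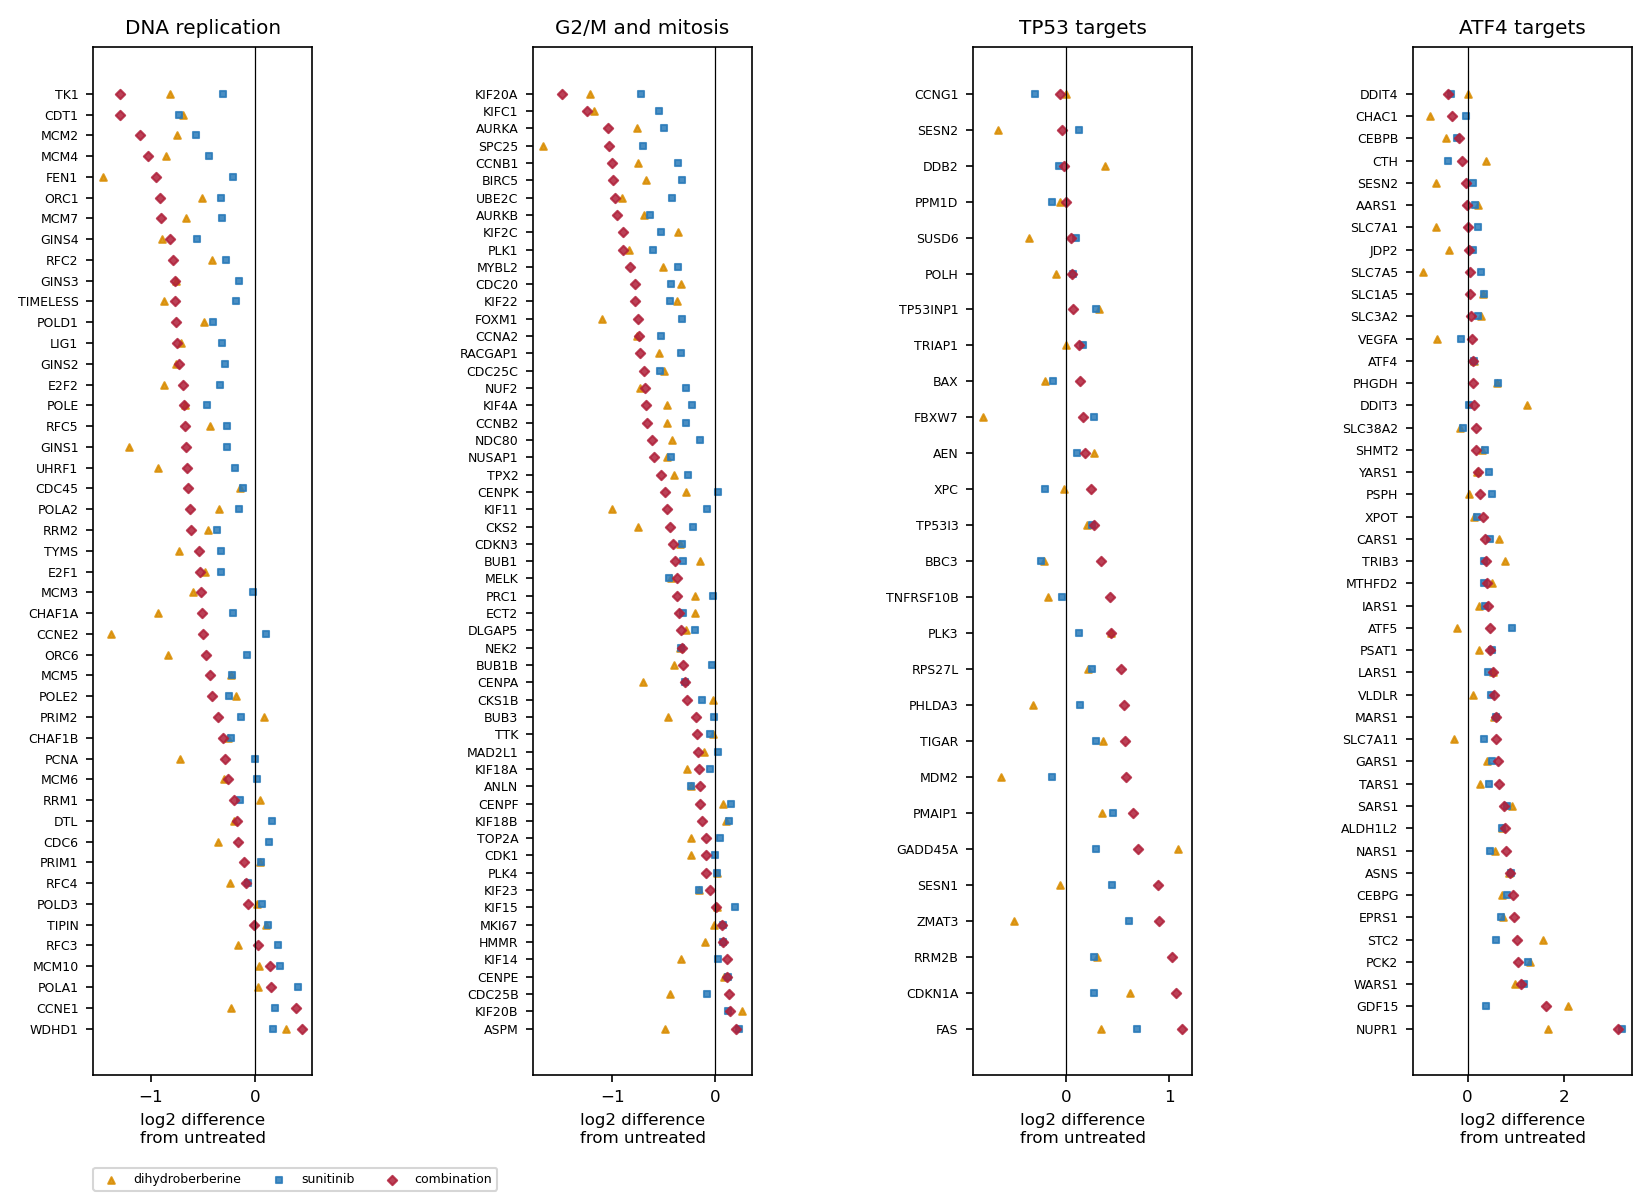
Log2 difference from untreated (x axis) for each kept member of 4 gene lists (rows, sorted by the combination) on the dihydroberberine, sunitinib and combination arrays; the 3 differences of a gene share the untreated array. With both drugs 41 of 46 DNA replication and 47 of 55 G2 and mitosis genes lie left of 0, and 24 of 27 p53 targets and 37 of 43 ATF4 targets lie right of it.

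ATF4 targets were higher. Of 43 kept, 37 were above 0, with a median of 0.38 that compares with 0.30 for dihydroberberine and 0.38 for sunitinib; 5 were at least 2-fold and 15 at least 1.5-fold higher. NUPR1 read 6.67 untreated, 8.35 with dihydroberberine, 9.89 with sunitinib and 9.81 with both drugs. WARS1, the tryptophan tRNA synthetase, read 11.96 untreated, 12.94 with dihydroberberine, 13.13 with sunitinib and 13.08 with both drugs, and PCK2, mitochondrial phosphoenolpyruvate carboxykinase, 9.14 untreated, 10.45 with dihydroberberine, 10.41 with sunitinib and 10.19 with both drugs; both were similarly high on all 3 drug arrays. Other aminoacyl-tRNA synthetases were at 10.70 to 11.67 (EPRS1) and 12.40 to 13.20 (NARS1), and asparagine synthetase ASNS at 12.84 to 13.73. ATF4 itself was at 14.05 to 14.16, DDIT3 at 8.24 to 8.38 and CHAC1 at 10.01 to 9.68. The list of endoplasmic reticulum chaperones and degradation genes was mostly lower, with 23 of 30 below 0 (median -0.29) and CALR, calreticulin, at 9.69 untreated, 9.15 with dihydroberberine, 8.66 with sunitinib and 8.47 with both drugs and SDF2L1 at 11.87 untreated, 10.77 with dihydroberberine, 11.02 with sunitinib and 10.67 with both drugs. ERO1B, an oxidase for disulfide bonds, was higher at 7.82 to 8.77. Cytosolic heat shock genes had a median of -0.10, with 14 of 19 below 0, HSPB1 going from 11.45 to 10.53 and HSPB8 from 11.50 to 10.71.

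Lipid synthesis genes were lower. In cholesterol synthesis and uptake 18 of 21 genes were below 0 (median -0.58, against -0.56 with dihydroberberine and -0.29 with sunitinib), 10 were at least 1.5-fold lower and 1 at least 2-fold. That gene was INSIG1, a sterol-sensing regulator that is itself a target of SREBP, at 10.65 untreated, 8.52 with dihydroberberine, 10.06 with sunitinib and 8.89 with both drugs. DHCR7, the last enzyme of the cholesterol pathway, read 10.06 untreated, 9.39 with dihydroberberine, 9.47 with sunitinib and 9.07 with both drugs, EBP, the sterol isomerase, 11.86 untreated, 10.96 with dihydroberberine, 11.31 with sunitinib and 10.92 with both drugs, and ACAT2, which starts the pathway from acetyl-CoA, 11.77 untreated, 10.85 with dihydroberberine, 11.32 with sunitinib and 10.88 with both drugs. In fatty acid synthesis and desaturation 20 of 24 were below 0 (median -0.22). FADS2, the first desaturase of polyunsaturated fatty acids, read 10.32 untreated, 8.36 with dihydroberberine, 9.48 with sunitinib and 8.59 with both drugs, and SREBF1, which encodes SREBP1, 9.96 untreated, 9.18 with dihydroberberine, 9.47 with sunitinib and 9.06 with both drugs. For INSIG1 and FADS2 the dihydroberberine array was the lowest of the 4. Of genes of fatty acid oxidation and PPAR targets, 16 of 18 were below 0 (median -0.20, or -0.11 with the floor at the 75th percentile), PPARGC1A, the coactivator of mitochondrial biogenesis, going from 8.32 to 7.18 and PDK4, which blocks pyruvate oxidation, from 9.75 to 8.73.

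Transcripts of energy metabolism genes were lower across several lists by small amounts, and metabolic activity was not measured. In glycolysis and the hypoxia response 28 of 34 were below 0 (median -0.30), 4 at least 2-fold and 11 at least 1.5-fold lower; PDK1 read 9.29 untreated, 8.59 with dihydroberberine, 8.72 with sunitinib and 8.11 with both drugs. NDRG1, also a hypoxia gene, was the exception past 2-fold, at 8.34 untreated, 9.44 with dihydroberberine, 8.16 with sunitinib and 9.58 with both drugs. Of 36 complex I subunits and assembly factors 33 were below 0 with a median of -0.20, and of 36 genes of complexes II to V 31 were, with a median of -0.17; no member of either list reached 2-fold. NDUFB4 had the lowest complex I value at 12.84 to 12.14, and ATP5F1D, a subunit of ATP synthase, went from 12.13 to 11.34. Proteasome subunits gave 27 of 33 below 0 (median -0.18), and splicing factors 29 of 40 (median -0.16). Cytosolic ribosomal protein genes had 43 of 52 above 0 with a median of 0.05 and a range of -0.35 to 0.33. After cyclic loess the medians were -0.12 for complex I, -0.08 for complexes II to V, -0.11 for the proteasome and -0.09 for splicing factors.

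Immediate early genes and feedback regulators of the MAPK pathway were higher: 26 of 34 were above 0 (median 0.32, against 0.16 with dihydroberberine and -0.09 with sunitinib), 3 at least 2-fold and 9 at least 1.5-fold higher. DUSP5, a phosphatase of ERK, read 9.66 untreated, 12.46 with dihydroberberine, 9.02 with sunitinib and 10.78 with both drugs, and DUSP1 read 12.20 untreated, 14.08 with dihydroberberine, 11.73 with sunitinib and 12.95 with both drugs. For both, dihydroberberine alone was highest, sunitinib alone was under untreated and the combination lay between. EGR1, an immediate early transcription factor, was likewise highest with dihydroberberine alone, at 6.68 untreated, 11.62 with dihydroberberine, 6.23 with sunitinib and 8.20 with both drugs. Its untreated and sunitinib values are both under the floor and have no order. The probe sets of EGR1 above the floor did not share their sign between both drugs and untreated, so its difference rests on the probe set used. Targets of YAP and TEAD showed 13 of 17 above 0 (median 0.32, or 0.20 as the mean of all probe sets), with AXL, a receptor tyrosine kinase, at 7.21 untreated, 8.67 with dihydroberberine, 6.53 with sunitinib and 8.30 with both drugs and CCN1, a matricellular protein, at 10.76 untreated, 13.60 with dihydroberberine, 9.81 with sunitinib and 11.62 with both drugs. Aryl hydrocarbon receptor targets had 7 of 10 above 0 with a median of 0.33 that rested on the choice of probe set and floor: it was 0.02 as the mean of all probe sets and 0.09 with both arrays required to reach the floor. Beside TIPARP, CYP1B1, a cytochrome P450, read 12.32 untreated, 13.46 with dihydroberberine, 13.01 with sunitinib and 13.45 with both drugs, and CYP1A1 was at 6.19 to 6.99, the untreated value being under the floor.

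Inflammatory genes split. In the NF-kB and cytokine list 13 of 19 were above 0 (median 0.22, or 0.09 with both arrays required to reach the floor), 4 at least 2-fold higher and 1, IL6, at least 2-fold lower. CXCL8, the neutrophil chemokine interleukin 8, read 12.83 untreated, 14.55 with dihydroberberine, 11.49 with sunitinib and 14.04 with both drugs, and PTX3, a secreted pattern recognition protein, 8.12 untreated, 10.17 with dihydroberberine, 7.83 with sunitinib and 9.55 with both drugs; in both the sunitinib array was the lowest of the 4. Interferon response genes were mostly lower, with 16 of 22 below 0 and a median of -0.37, against -0.02 with dihydroberberine and -0.28 with sunitinib. Without the filter on low values the median was -0.13. ISG20, an exonuclease, read 11.68 untreated, 11.15 with dihydroberberine, 11.19 with sunitinib and 10.59 with both drugs, and IFITM1, a membrane protein that restricts virus entry, 8.60 untreated, 8.25 with dihydroberberine, 7.69 with sunitinib and 7.55 with both drugs. RIGI, a sensor of viral RNA, was higher at 6.32 to 7.25, the untreated value being under the floor.

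ID1 belonged to a list of ID proteins and BMP signalling in which 12 of 16 genes were above 0 (median 0.32, against -0.11 with dihydroberberine and -0.03 with sunitinib). ID3 read 11.55 untreated, 12.27 with dihydroberberine, 12.13 with sunitinib and 12.62 with both drugs, and BMPR2, a BMP receptor, 7.63 untreated, 7.35 with dihydroberberine, 8.26 with sunitinib and 8.61 with both drugs. BMPER, an extracellular BMP regulator, was lower at 9.58 untreated, 9.07 with dihydroberberine, 8.14 with sunitinib and 8.24 with both drugs. Matrix proteases and plasminogen factors gave 12 of 14 above 0 (median 0.24, or 0.10 without shared probe sets). The largest difference in that list was the lower PRSS23, at 12.86 to 11.15, and ADAM17, the sheddase of ERBB ligands, was at 10.51 to 11.37. MMP1, interstitial collagenase, read 5.83 untreated, 8.87 with dihydroberberine, 5.57 with sunitinib and 7.05 with both drugs, with the untreated and sunitinib values under the floor. TIMP2, an inhibitor of these proteases, was at 10.66 to 11.84, but its 2 probe sets gave 0.09 and 1.18.

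Lists without a common shift included receptor tyrosine kinases (8 of 16 above 0), ERBB ligands and growth factors (7 of 16), amino acid transporters (10 of 19) and AMPK with the salt-inducible kinases (10 of 20). Within them MET was at 10.77 to 11.47, EPHA2 at 8.92 to 9.85 and SLC38A1, a glutamine carrier, at 11.48 to 12.34. Autophagy genes had a median of 0.08 and lysosomal genes one of 0.09, but the lysosomal list held both ASAH1, acid ceramidase, at 9.96 untreated, 10.70 with dihydroberberine, 10.99 with sunitinib and 11.44 with both drugs, and CTSZ, a cathepsin, at 12.54 untreated, 11.40 with dihydroberberine, 11.71 with sunitinib and 11.09 with both drugs. Drug efflux pumps went both ways, with ABCC3 at 10.24 to 10.98 and ABCG2 at 10.63 to 10.01. NRF2 targets had 19 of 30 below 0 (median -0.12). Of 23 A549 and alveolar lineage genes on the array, 14 were kept. Of these, 3 were above 0 and 11 below, 2 at least 2-fold lower. SFTPA1, SFTPD and NKX2-1 were among the lineage genes under the floor on both arrays. FOXA1, a foregut transcription factor, was lower at 11.53 untreated, 10.01 with dihydroberberine, 10.93 with sunitinib and 10.39 with both drugs and SOX9 higher at 10.15 to 10.91. Of the 5 markers of leukocytes and red cells kept, 2 were above 0 and 3 below. Their median of -0.02 was the value of HBB, a red cell globin. CD14 read 8.82 untreated, 6.75 with dihydroberberine, 6.27 with sunitinib and 5.76 with both drugs and CD68 8.16 untreated, 8.42 with dihydroberberine, 7.33 with sunitinib and 7.06 with both drugs, whereas ITGAX (7.73 to 8.08) and CD79A (6.83 to 7.14) were slightly higher and HBB was at 8.11 to 8.09, while PTPRC, CD163, ITGAM and LYZ were under the floor on both arrays.

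**Figure D5:**
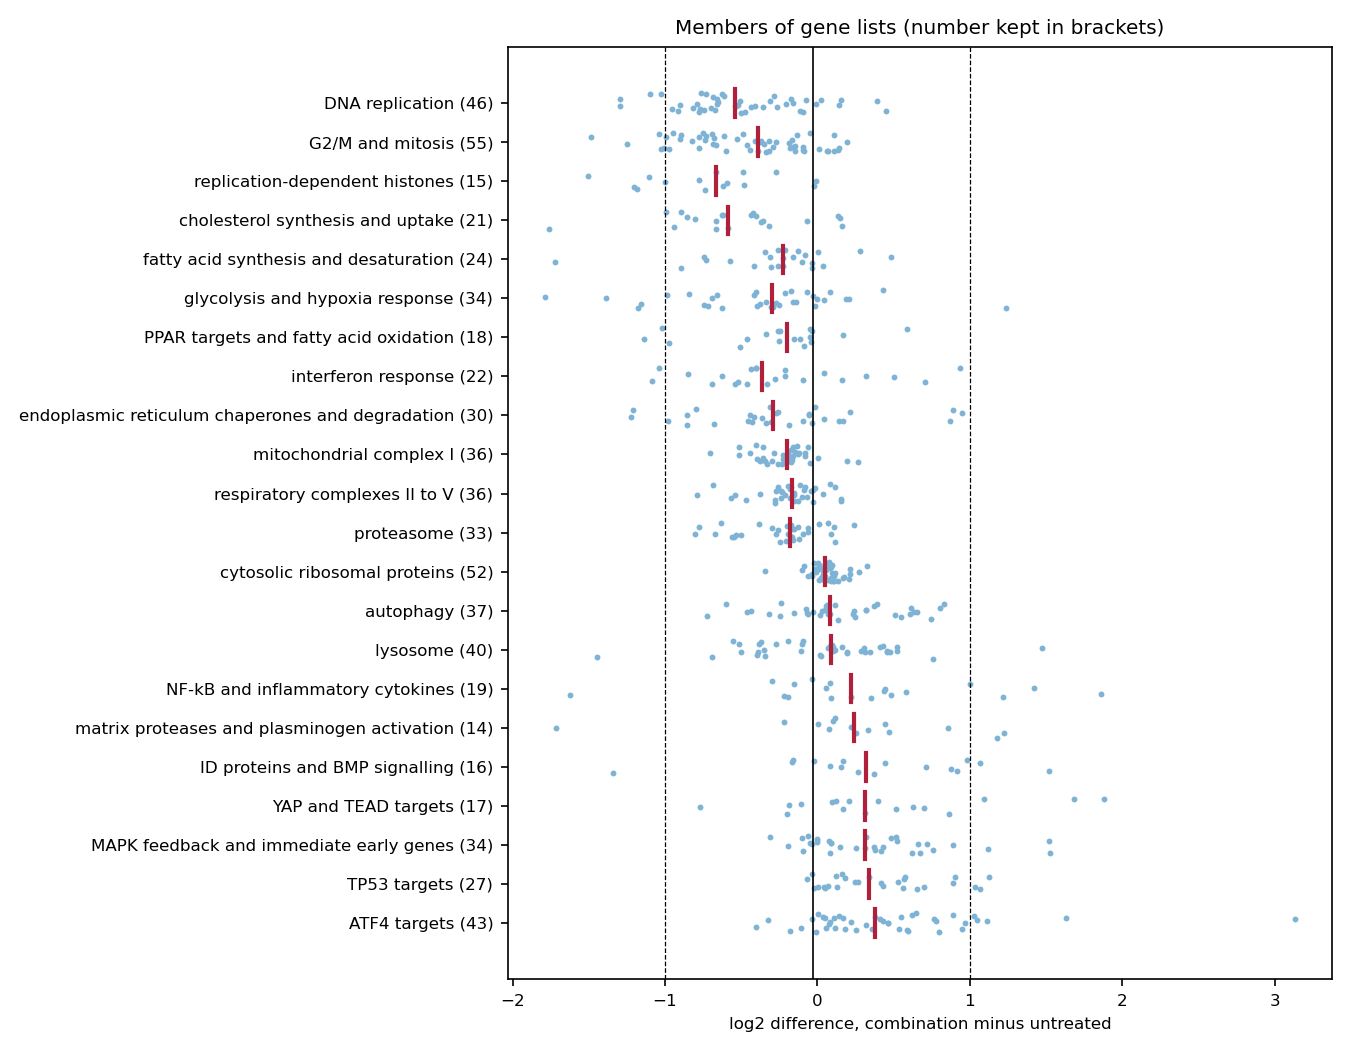
Points are the log2 differences, combination minus untreated, of the kept members of 22 gene lists, red bars are list medians, the solid line is the median of all 10625 genes (-0.03) and dashed lines mark 2-fold. List medians run from -0.66 for histones (-0.34 without the filter on low values, which puts DNA replication, cholesterol and mitosis lower) to 0.38 for ATF4 targets, and members of most lists lie on both sides of 0.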

How the data were processed

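Total RNA of 4 A549 cultures, 1 per condition, was labelled and hybridised to Affymetrix arrays, per the labels' protocols. An Agilent array is named in the design text and a Cy3 dye in the labels, but the labelling kit and the probe set names are Affymetrix. Values were made with Affymetrix Expression Console, per the submitters' processing notes; for its version and for the normalization, the sources used here give nothing. The deposited values are on a log2 scale, judged from their range of 3.01 to 15.36. Probe sets were named from GEO's platform annotation, with 44961 matched to RefSeq by gene identifier; 1832 naming several genes and 2473 naming none were left out. Differences were taken as combination minus untreated with pandas 2.3.3, after a check on simulated data. With 1 array per condition, no test was run, genes at least 2-fold apart were counted, and precision is limited by the number of arrays. Where 1 array was under the floor, the fold is a bound with that array raised to the floor. Named genes were the 15 highest and 15 lowest with all probe sets of one sign, 5 per direction with 1 array under the floor, and up to 4 per list of 49 lists; further members account for a list. The members and lists were chosen with earlier results of these data known. The 9 alternatives were another choice of probe sets, filter, floor or scaling, including cyclic loess in limma 3.58.1. Results that need items withheld for evaluation are not reported here.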

Additional observations from a re-analysis of the deposited data

Results flagged for a closer look

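Some probe sets outside the gene comparison differed between the 2 arrays. Of 1122 probe sets without a gene name and over the floor, 10 were at least 2-fold higher with both drugs (0.891%) and 22 at least 2-fold lower (1.96%). These shares lie close to the 1.20% and 1.54% of all genes kept.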

How the results depend on the processing

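The count of genes at least 2-fold higher was 61 in place of 127 when all probe sets of a gene were averaged and 66 with the floor at the 75th percentile, the latter with fewer genes (6490); the cause of the former was not tested. Under the other 7 alternatives it lay between 86 and 146, and the count of lower genes lay between 111 and 174 under all 9. The share of higher genes among those past 2-fold was 43.6% and ranged from 35.5% (mean of all probe sets) to 49.5% (cyclic loess). Of 86 named genes past 2-fold, 59 kept their sign and stayed past 2-fold under every alternative that measured them, and 0 reversed. The other 27 were under 2-fold in at least 1: AXL, CD68, FOSL1, MCL1, NDRG1, NRG1, PCK2, TIMP2, WARS1, ALDOC, BIRC2, CDKN1A, FADS2, FAS, ID3, MCM4, PLCB4, CDKN2D, H1-3, H2BC9, KDM7A, MMP1, AURKA, CBR3, PDK4, PER2 and SPC25. Averaged over probe sets, NRG1 was at -0.55 and AXL at 0.46. Raised to the floor, H2BC9 was at -0.53 and MMP1 at 0.30. Of 49 list medians, 11 took the other sign under at least 1 alternative, and each of these lay within 0.11 of 0 in the values reported. No paired analysis was possible because each condition has 1 array, and for the same reason no array could be left out.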
